A study of Mus musculus with 8 samples.

Results

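Divergent promoter pairs are places where 2 protein-coding genes lie head to head and are transcribed away from each other. All pairs of protein-coding genes on chromosomes 1 to 19 of the GENCODE annotation of mm10 were taken whose 5′ ends faced away from each other and lay at most 1000 bp apart. Of 20807 protein-coding genes on these chromosomes, 1448 (6.96%) met this rule, in 734 pairs, and 20 of the genes belonged to more than 1 pair, so that those regions overlap. The distance between the 5′ ends had a median of 128 bp (quartiles 66.25 and 240 bp) and ranged from 1 to 987 bp. The region of a pair ran from one 5′ end to the other with 500 bp added on either side. A further 446 head-to-head pairs whose gene models overlapped at their 5′ ends by up to the same distance were not members. PBRM1, a subunit of the PBAF form of the SWI/SNF chromatin remodeling complex, and BRG1, its ATPase, were mapped by chromatin immunocleavage sequencing (ChIC-Seq) in primary uterine stromal cells, with 3 replicates (n = 3) per antibody. The cells came from WT mice of 8 to 12 weeks on D4 after mating. Per the labels, the uterine horns of a preparation (5 to 10) were pooled and plated before 50000 cells were fixed for 5 minutes for each library, so that every library shared the WT genotype, the day and the culture step, and the description of the animals gives both pregnancy and pseudopregnancy. The 2 IgG libraries were not analysed here.

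In the assay, the antibody brings micrococcal nuclease to chromatin in fixed cells and the DNA cut free is sequenced. Divergent promoters are a common arrangement in mammalian genomes. The genes often lie over a single CpG island, share the nucleosome-free stretch between their transcription start sites, and frequently encode housekeeping products such as DNA repair proteins, mitochondrial proteins and histones. SWI/SNF complexes slide or evict nucleosomes with the energy of ATP. BRG1 belongs to several forms of the complex, whereas PBRM1, which carries several bromodomains, is found in one of them. A summit between the 5′ ends lies over DNA upstream of both genes as annotated. A summit outside this interval lies on the gene side of the outermost annotated 5′ end of one of them. The start in use in these cells was not measured and can lie further inside.

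The interval between the 5′ ends is shown first for some of the pairs named below, all with an interval of at most 300 bases. Summits can lie outside the printed bases. Each sequence is the plus strand of GRCm38 (mm10), 5′ to 3′, so that the gene named first starts just to the left of it and runs leftward, and the gene named second starts just to the right. None of these intervals was overlapped by another annotated gene. Capitals mark matches on either strand to the ETS motif CCGGAAG, the GC box GGGCGG and the CCAAT box CCAAT, which are letters searched for and not shown sites. The first set holds textbook pairs: *Col4a4*/*Col4a3* at chr1:82586850-82586920, *Sdhd*/*Timm8b* at chr9:50603813-50603909, *Ndufaf2*/*Ercc8* at chr13:108158624-108158730, *Mrps12*/*Sars2* at chr7:28741821-28741991 and *Brca1*/*Nbr1* at chr11:101551956-101552148.
Col4a4/Col4a3: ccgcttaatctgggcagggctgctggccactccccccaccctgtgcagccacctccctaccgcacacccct
Sdhd/Timm8b: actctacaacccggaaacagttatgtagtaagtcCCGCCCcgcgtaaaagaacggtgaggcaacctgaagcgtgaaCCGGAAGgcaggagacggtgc
Ndufaf2/Ercc8: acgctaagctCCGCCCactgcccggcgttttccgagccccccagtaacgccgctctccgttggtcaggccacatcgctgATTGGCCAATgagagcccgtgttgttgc
Mrps12/Sars2: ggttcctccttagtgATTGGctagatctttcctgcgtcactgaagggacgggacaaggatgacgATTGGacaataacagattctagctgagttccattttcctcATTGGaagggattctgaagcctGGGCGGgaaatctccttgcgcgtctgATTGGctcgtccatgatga
Brca1/Nbr1: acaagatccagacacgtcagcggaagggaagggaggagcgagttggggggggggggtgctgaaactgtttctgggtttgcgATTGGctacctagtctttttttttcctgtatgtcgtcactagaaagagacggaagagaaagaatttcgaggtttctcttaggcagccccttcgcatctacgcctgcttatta

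The second set holds the 5 pairs in which the lower of the PBRM1 and BRG1 mean fold enrichments was highest: *Tgfbrap1*/*AI597479* at chr1:43098638-43098709, *Npc2*/*Isca2* at chr12:84773153-84773250, *Ccdc151*/*Prkcsh* at chr9:22002635-22002805, *Pip4p1*/*Pnp* at chr14:50930857-50931081 and *Nadsyn1*/*Dhcr7* at chr7:143822850-143823144.
Tgfbrap1/AI597479: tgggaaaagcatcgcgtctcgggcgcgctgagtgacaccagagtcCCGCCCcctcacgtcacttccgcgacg
Npc2/Isca2: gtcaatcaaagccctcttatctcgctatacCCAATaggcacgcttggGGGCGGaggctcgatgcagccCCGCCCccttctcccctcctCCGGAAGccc
Ccdc151/Prkcsh: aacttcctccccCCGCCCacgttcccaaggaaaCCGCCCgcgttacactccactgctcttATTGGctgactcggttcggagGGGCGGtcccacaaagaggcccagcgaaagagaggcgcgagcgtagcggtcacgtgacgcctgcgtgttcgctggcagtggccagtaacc
Pip4p1/Pnp: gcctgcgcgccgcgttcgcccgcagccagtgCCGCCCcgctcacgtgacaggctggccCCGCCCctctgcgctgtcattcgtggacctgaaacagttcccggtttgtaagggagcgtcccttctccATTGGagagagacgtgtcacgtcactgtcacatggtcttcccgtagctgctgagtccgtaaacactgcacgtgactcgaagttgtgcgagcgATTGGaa
Nadsyn1/Dhcr7: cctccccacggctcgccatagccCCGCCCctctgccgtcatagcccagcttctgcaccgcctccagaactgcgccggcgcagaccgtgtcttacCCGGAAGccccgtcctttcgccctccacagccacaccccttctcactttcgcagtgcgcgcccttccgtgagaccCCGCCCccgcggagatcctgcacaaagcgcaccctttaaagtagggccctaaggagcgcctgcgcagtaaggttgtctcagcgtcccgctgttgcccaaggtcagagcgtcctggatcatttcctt

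The third set holds the 2 pairs with the smallest distance among those with no peak in any of the 8 lists: *Best1*/*Rab3il1* at chr19:10001634-10001668 and *Rnf151*/*Rps2* at chr17:24718064-24718115.
Best1/Rab3il1: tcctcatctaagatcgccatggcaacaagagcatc
Rnf151/Rps2: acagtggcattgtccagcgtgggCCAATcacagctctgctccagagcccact

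Each of the 5 highest pairs held at least 1 GC box in its interval. The GC box was common, with a match in 78.2% of all divergent pairs in windows of 501 bp centred on the midpoint. These windows are longer than the printed intervals, so that the shares are not like for like. A link of the GC box with the highest pairs was not tested. The *Mrps12*/*Sars2* interval held 4 CCAAT boxes in 171 bases, and those of *Col4a4*/*Col4a3* and *Best1*/*Rab3il1* held none of the motifs.

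Most divergent pairs were occupied in every library. A PBRM1 peak overlapped 684, 694 and 676 of the 734 regions in replicates 1, 2 and 3, a share of 93.3% ± 1.23 (SD, n = 3). A BRG1 peak overlapped 700, 699 and 698 regions, a share of 95.2% ± 0.136 (SD, n = 3). The 95% Wilson interval of a single library, which covers counting error only, was at most as wide as 89.9% to 93.8%, that of PBRM1 replicate 3. The lists made from the pooled fragments of each antibody gave 706 regions (96.2%) for PBRM1 and 710 (96.7%) for BRG1, of which 704 had both. A peak was present in all 6 replicate lists in 661 regions (90.1%), in 1 to 5 lists in 46, and in none in 27. All BRG1 replicates lay above all PBRM1 replicates, and the difference, PBRM1 minus BRG1, was −1.95 percentage points (p = 0.1 by an exact permutation test, two-sided, the smallest that 3 against 3 allow). It was −5.45 points with peaks of a −log10 q of at least 5, −6.72 with no flank and −3.00 with the summit required in the region, each at p = 0.1 by the same exact test. The PBRM1 replicates rested on 8868777 to 16505239 fragments and the BRG1 replicates on 11506964 to 14595089. Peaks were called without a control, against the background of the library itself, and fold enrichments of different libraries are therefore not on one scale. The study calls the replicates biological, but the labels do not say that they came from separate animals or cultures, and the p-values measure the spread between these libraries.

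The background for these shares is all protein-coding genes, read in windows of 500 bp on either side of the gene 5′ end. Of all 20807 genes, 61.5% had a peak in the pooled PBRM1 list, against 95.6% of the 1448 genes in divergent pairs and 57.3% of 16684 lone genes, which had no other protein-coding 5′ end within 5000 bp. In the pooled BRG1 list the shares were 64.9% of all genes, 96.2% of the genes in pairs and 61.1% of the lone genes. A peak in all 6 replicate lists was found at 45.2% of all genes, at 88.1% of the genes in pairs and at 40.2% of the lone genes.

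The genes in divergent pairs had a peak more often than lone genes in each of the 6 libraries, and their peaks were wider and higher. For PBRM1, 92% ± 1.42 (SD, n = 3) of the windows in pairs and 47.1% ± 3.16 of the lone windows had a peak, and for BRG1 94.4% ± 0.199 and 53.9% ± 0.695. The difference averaged 42.7 ± 2.74 percentage points over the libraries, with a range of 39.8 to 47.1. The median peak width was 700 ± 40.4 bp in pairs and 552 ± 33.4 bp in lone windows for PBRM1, and 769 ± 40.8 bp and 596 ± 32.8 bp for BRG1, a difference of 160 ± 15.5 bp. The median fold enrichment at the summit was 7.42 ± 1.02 and 6.69 ± 0.899 for PBRM1, and 9.25 ± 0.122 and 8.17 ± 0.0736 for BRG1, a difference of 0.898 ± 0.229. With only peaks of a −log10 q of at least 5, this difference was 0.589 ± 0.209. Each of the 3 differences was above 0 in 6 of 6 libraries (two-sided exact sign-flip permutation test, p = 0.03125, the smallest that 6 libraries allow, and 0.03125 after Benjamini-Hochberg adjustment over the 3 measures). Windows of genes in a pair overlap each other, so that 1 peak often counted for both genes. The window of a gene in a pair usually also takes in the 5′ end of its partner, and a lone window only its own. The 3 differences are therefore not like for like, here and in the CpG-rich windows below. The part of the second 5′ end in them was not tested. The PBRM1 and BRG1 libraries came from cells prepared in the same way and were not shown to be independent preparations.

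Base composition moved with this difference. The windows of genes in pairs had a median G+C content of 59.9% and a median observed-to-expected CpG ratio of 0.777, against 54.2% and 0.502 in lone windows. A G+C content of at least 55% and a CpG ratio of at least 0.6 were met by 72.6% of the windows in pairs, 36.2% of the lone windows and 39.6% of all windows. Among windows that met both, a PBRM1 peak was present in 97.6% ± 1.42 (SD, n = 3) of those in pairs and in 83.7% ± 5.11 of the lone ones, and a BRG1 peak in 99% ± 0.198 and 93.1% ± 0.68. The difference in share was then 9.93 ± 5.01 percentage points, with a range of 5.30 to 18.2 over the 6 libraries. Peaks in pairs remained wider, by 137 ± 11.9 bp, and higher, by 0.77 ± 0.209 in fold enrichment, each in 6 of 6 libraries (two-sided exact sign-flip permutation test, p = 0.03125 for each of the 3).

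**Figure D1:**
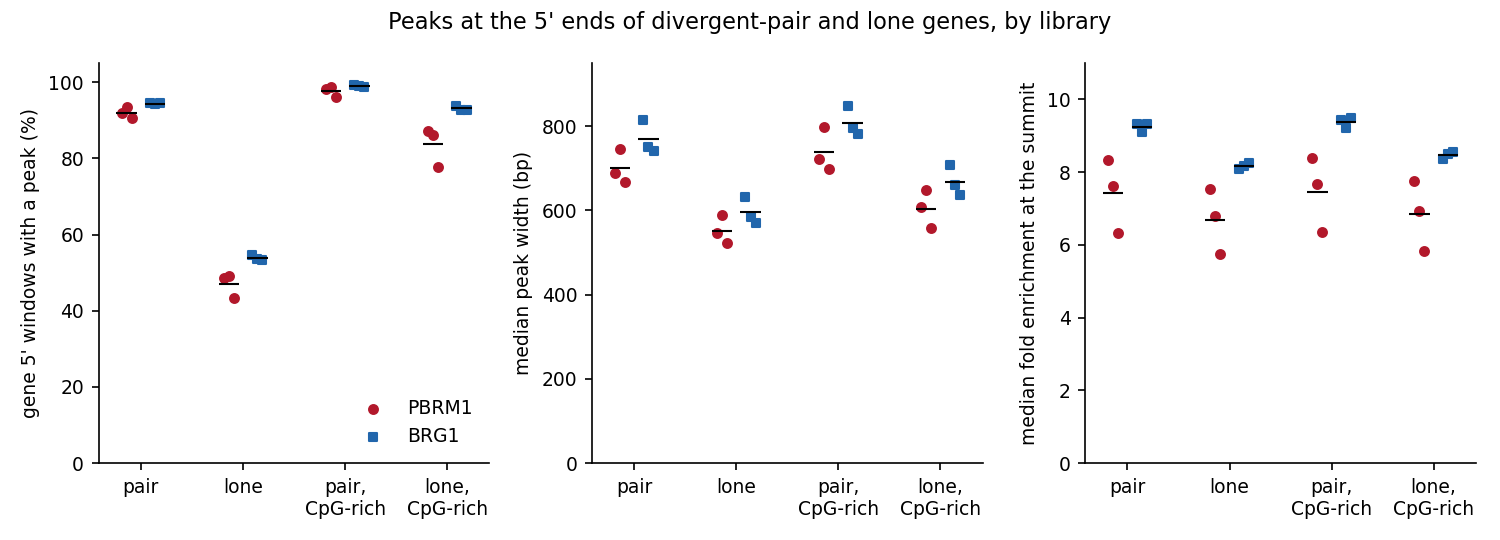
Share of gene 5′ windows with a peak (left, %), median peak width (middle, bp) and median fold enrichment at the summit (right), for genes in divergent pairs and lone genes, over all windows and over windows rich in G+C and CpG. The window of a gene in a pair usually also takes in the 5′ end of its partner. Each point is 1 library and each black line the mean of 3; the lone share rises from 47.1% to 83.7% for PBRM1 and from 53.9% to 93.1% for BRG1 when only CpG-rich windows are read.

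The summits of the antibodies were placed differently within the regions. Where a region had several peaks, the peak with the highest fold enrichment was read. The BRG1 summit lay between the 5′ ends in 283, 275 and 292 of the called regions in replicates 1, 2 and 3, which was 40.5% ± 1.25 (SD, n = 3). The PBRM1 summit lay there in 151, 145 and 196 regions, which was 24% ± 4.38 (SD, n = 3). The groups did not overlap, and the difference, PBRM1 minus BRG1, was −16.5 percentage points (p = 0.1 by an exact permutation test, two-sided, the smallest that the design allows). PBRM1 replicate 3, the most deeply sequenced library, had the highest PBRM1 share (29%), and the difference was −19.1 points without it. In the pooled lists the interval held 299 of 710 BRG1 summits and 162 of 706 PBRM1 summits. The other PBRM1 summits lay in the gene on the minus strand in 289 regions and in the gene on the plus strand in 255, and the other BRG1 summits in 217 and 194.

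Pairs with the shortest intervals showed the placement most directly. In the 306 regions with 1 to 100 bp between the 5′ ends, the PBRM1 summit lay a median of 151 ± 7.57 bp (SD, n = 3) from the midpoint and the BRG1 summit 74.6 ± 2.74 bp. A PBRM1 summit outside the interval lay 131 ± 5.03 bp inside the gene, and a BRG1 summit 79.3 ± 3.21 bp. The summit was between the 5′ ends in 8.86% ± 1.8 of the called regions for PBRM1 and in 22.6% ± 0.412 for BRG1. Each of these measures separated the 3 PBRM1 from the 3 BRG1 libraries (p = 0.1 for each by an exact permutation test, two-sided, and 0.167, 0.125 and 0.1 after adjustment over the 5 classes of distance). The separation did not hold in the widest pairs. At 501 to 1000 bp, summits outside the interval lay 161 ± 1.53 bp inside the gene for PBRM1 and 177 ± 15.5 bp for BRG1 (p = 0.4 by an exact permutation test, two-sided), and the libraries overlapped in their distance from the midpoint at 301 to 500 bp and at 501 to 1000 bp. In the plot of summit position against distance, the PBRM1 summits of close pairs form 2 bands on either side of the midpoint, whereas the BRG1 summits are densest near the midpoint.

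**Figure D2:**
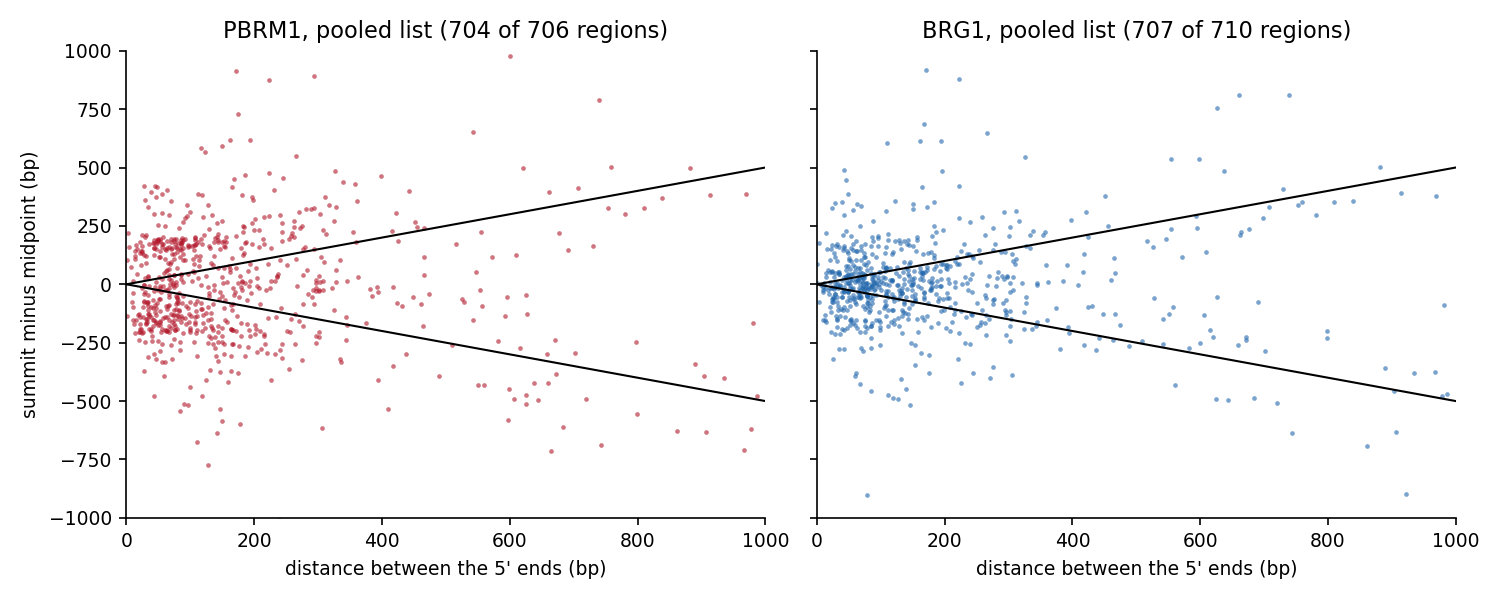
Position of the pooled PBRM1 (left) and BRG1 (right) summit relative to the midpoint of each pair (bp, y axis) against the distance between the 5′ ends (bp, x axis). Each point is 1 region, the black lines are the 2 gene 5′ ends, points between the lines lie upstream of both genes, and 2 PBRM1 and 3 BRG1 summits more than 1000 bp from the midpoint are not drawn. The PBRM1 interval holds 162 of 706 summits and the BRG1 interval 299 of 710.

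The share of summits between the 5′ ends was higher in longer intervals up to 500 bp. A longer interval also takes up more of its region, and the part of length alone in this rise was not tested. At 101 to 200 bp it was 23.1% ± 7.47 for PBRM1 and 46.2% ± 2.99 for BRG1, and at 201 to 300 bp 33.2% ± 6.56 and 54.7% ± 1.66. At 301 to 500 bp the shares were 56.1% ± 4.27 and 62.1% ± 0.344, and at 501 to 1000 bp 53.8% ± 6.63 and 66.5% ± 3.9. The BRG1 libraries lay above the PBRM1 libraries in all 5 classes of distance (p = 0.1 in each by an exact permutation test, two-sided, and 0.1 after Benjamini-Hochberg adjustment over the 5). At 301 to 500 bp the gap between the antibodies was 5.99 points, against 23 points at 101 to 200 bp, and the difference between these classes was not tested.

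The same pattern was not particular to pairs. In lone windows, the PBRM1 summit lay downstream of the 5′ end in 61.9% ± 4.78 (SD, n = 3) of the called windows and the BRG1 summit in 52.7% ± 1.15, and the median distance from the 5′ end was 148 ± 6.08 bp and 110 ± 1.53 bp. The PBRM1 fragments were also longer, at 177 to 188 bp by the MACS headers, against 149 to 154 bp for BRG1, and the part of fragment length in the placement was not tested.

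Summit positions varied between libraries of the same antibody, which sets the precision of these statements. Over the 661 regions with a peak in all 6 lists, the median distance between the summits of 2 libraries was 22 to 24 bp for the 3 pairs of BRG1 libraries and 46 to 65 bp for the 3 pairs of PBRM1 libraries. For the 9 pairs of a PBRM1 with a BRG1 library it was 76 to 92 bp. The BRG1 summit was between the 5′ ends in all 3 replicates in 183 of these regions and the PBRM1 summit in 86. In 47 regions BRG1 was between them in 3 replicates and PBRM1 in 0. Some of the 47 overlap and were read from the same peaks, such as *Pms1*/*Ormdl1* and *Pms1*/*Gm28778*, so that the separate loci are fewer. In 2 regions, *Gm10644*/*Asf1b* and *Gart*/*Son*, PBRM1 was between the 5′ ends in 3 replicates and BRG1 in 0. These pairs and the next were chosen after their values were seen, as the only 2 of their kind and as the 2 of the 47 regions with the smallest distances. At *Pms1*/*Ormdl1* (77 bp), where *Pms1* encodes a mismatch repair protein, the BRG1 summits lay −3.5, 19.5 and 28.5 bp from the midpoint and the PBRM1 summits 127.5, −90.5 and −84.5 bp. At *Mau2*/*Sugp1* (79 bp), where *Mau2* encodes a cohesin loader, the BRG1 summits lay −16.5, −27.5 and −17.5 bp from it and the PBRM1 summits −126.5, −152.5 and 99.5 bp. In both pairs the PBRM1 libraries were in different genes, while the BRG1 libraries stayed in the interval.

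Between the pooled lists, the PBRM1 and BRG1 summits of a region were a median of 73 bp apart (quartiles 15.75 and 177 bp), and 313 of 704 regions (44.5%) had them within 50 bp. In 9397 lone windows with both pooled peaks the median was 61 bp and 46.1% were within 50 bp. The summits lay in the interval for both antibodies in 136 regions, for BRG1 but not PBRM1 in 161, for PBRM1 but not BRG1 in 26, in the same gene in 326, and in opposite genes in 55. The PBRM1 summit was the farther of both from the midpoint in 485 regions (68.9%).

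One peak usually covered both start sites. A single peak spanned both 5′ ends in 74% ± 2.01 (SD, n = 3) of the called regions for PBRM1 and in 83.8% ± 1.14 for BRG1. The replicates of the antibodies again did not overlap (p = 0.1 by an exact permutation test, two-sided, the smallest possible). In the pooled lists the shares lay closer together, at 87% for PBRM1 and 89.6% for BRG1. The PBRM1 replicate lists held 21497 to 25822 peaks on these chromosomes and the BRG1 lists 35880 to 39831. The part of peak number and depth in the difference was not tested. Over the replicates, the share for PBRM1 fell from 87.2% ± 0.499 at 1 to 100 bp to 18.5% ± 5.56 at 501 to 1000 bp, and that for BRG1 from 95.4% ± 0.522 to 30.2% ± 3.66. Median peak widths did not follow the distance in this way, although a longer distance needs a wider peak to span it. They were 674 ± 38.5 bp for PBRM1 and 736 ± 34.9 bp for BRG1 at 1 to 100 bp, 736 ± 81.9 bp and 829 ± 45.3 bp at 201 to 300 bp, and 641 ± 27.4 bp and 713 ± 26.6 bp at 501 to 1000 bp. In 8.22% of the called regions in the pooled PBRM1 list and 8.59% in the pooled BRG1 list, 2 or more peaks were found.

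**Figure D3:**
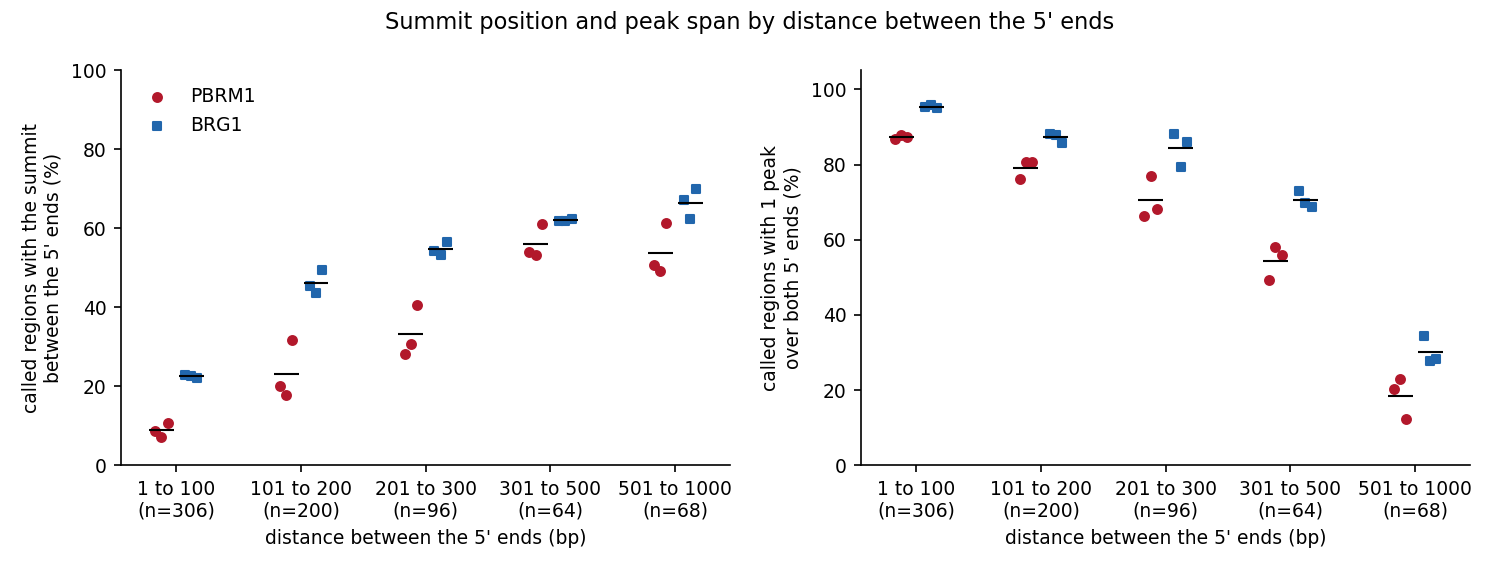
Share of called regions with the summit between the 5′ ends (left, %) and with 1 peak over both 5′ ends (right, %), by the distance between the 5′ ends. Points are libraries and lines the means of 3; the first share goes from 8.86% to 56.1% and then 53.8% in the last class for PBRM1, and from 22.6% to 66.5% for BRG1, while the second goes to 18.5% and 30.2%.

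In 10 regions, each pair had a separate peak over each 5′ end in both pooled lists, and all of these were 638 to 978 bp wide between the 5′ ends. Among the 5 widest were *Fhod1*/*Slc9a5* (890 bp), *P3h4*/*Fkbp10* (861 bp) and *Wrn*/*Purg* (798 bp). *Wrn* encodes a DNA helicase, and *P3h4* and *Fkbp10* endoplasmic reticulum proteins that act on collagen. At *P3h4*/*Fkbp10* the stronger PBRM1 peak had fold enrichments of 9.15, 7.18 and 5.49 in replicates 1, 2 and 3, and the stronger BRG1 peak 7.78, 7.16 and 6.14. All 6 of these summits lay on the *P3h4* side of the midpoint. At *Wrn*/*Purg* the PBRM1 values were 6.31, 5.86 and 5.11 and the BRG1 values 9.98, 9.13 and 9.58, with all summits on the *Wrn* side.

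The pairs next to the limit of 1000 bp did not stand out. Just inside it were *Btf3l4*/*Txndc12* (987 bp) and *Asphd1*/*Sez6l2* (981 bp), with mean fold enrichments of 7.07 ± 1.29 and 5.93 ± 2 (SD, n = 3) for PBRM1. Just outside it were *Gpr108*/*Trip10* (1009 bp), *Sgsm2*/*Tsr1* (1011 bp) and *Dirc2*/*Hspbap1* (1019 bp). Each of these pairs had a peak in 3 of 3 replicates of each antibody. The outside pairs had PBRM1 fold enrichments of 3.44 to 8.48 and BRG1 fold enrichments of 5.10 to 9.64 over the replicates.

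The textbook pairs were all occupied by both antibodies in all 6 libraries, as were 90.1% of all pairs. Of 16 pairs listed from textbook knowledge, 8 met the rule, and the other 8, such as *Hspd1*/*Hspe1* and *Col4a1*/*Col4a2*, have gene models that overlap at their 5′ ends and were not members. *Atm*/*Npat* (307 bp) joins the kinase that signals DNA breaks to a coactivator of histone gene transcription. Its PBRM1 fold enrichments were 13.9, 13.5 and 10.7 in replicates 1, 2 and 3, and its BRG1 fold enrichments 14.6, 13.9 and 16.1. All of its summits lay between the 5′ ends and on the *Atm* side, −64.5 to −25.5 bp from the midpoint. *Mrps12*/*Sars2* (172 bp) encodes a mitochondrial ribosomal protein and the mitochondrial seryl-tRNA synthetase. It had PBRM1 values of 14.5, 13.4 and 11.7 and BRG1 values of 12.2, 11.3 and 10.4, with all summits on the *Sars2* side, 183 to 350 bp from the midpoint.

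*Sdhd*/*Timm8b* (98 bp) encodes a subunit of succinate dehydrogenase and a chaperone of mitochondrial protein import. Its PBRM1 fold enrichments were 7.60, 7.58 and 8.93, and its PBRM1 summits lay 109, 183 and 120 bp inside *Timm8b*. Its BRG1 fold enrichments were 12.1, 11.5 and 16.2. The BRG1 summit lay on the 5′ end base of *Timm8b* in replicate 1, which was counted as between the 5′ ends. It lay 11 and 2 bp inside *Timm8b* in replicates 2 and 3. *Col4a4*/*Col4a3* (72 bp) encodes 2 collagen chains of basement membranes and was the only collagen pair. It had PBRM1 values of 5.66, 7.08 and 5.00, and the BRG1 value of replicate 1 (12.5) stood apart from those of replicates 2 and 3 (6.87 and 6.48). *Brca1*/*Nbr1* (194 bp) joins a gene of homologous recombination to one of an autophagy receptor, with PBRM1 values of 6.78, 6.37 and 5.72 and BRG1 values of 10.97, 9.33 and 9.18. All of its summits lay 503 to 756 bp inside *Nbr1*, within 2 to 36 bp of another annotated transcript start.

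*Mcm4*/*Prkdc* (466 bp) encodes a subunit of the replicative helicase and the catalytic subunit of DNA-dependent protein kinase. Its PBRM1 mean was 8.67 ± 1.63 and its BRG1 mean 10.4 ± 0.538 (SD, n = 3), and its summits changed side between replicates of both antibodies. *Ndufaf2*/*Ercc8* (108 bp), a complex I assembly factor and a transcription-coupled repair gene, had means of 7.56 ± 1.85 and 8.90 ± 0.267, and its 3 BRG1 summits lay 3 to 83 bp inside *Ndufaf2*. *Pdcd10*/*Serpini1* (691 bp) had means of 9.51 ± 1.14 and 10.4 ± 0.283, and its strongest peak was 1114 to 1384 bp wide in each library. Over all 661 regions with a peak in the 6 lists, the median of these means was 7.59 for PBRM1 (range 3.25 to 14.8) and 9.50 for BRG1 (range 3.64 to 19.6).

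The 5 highest pairs were chosen by their fold enrichments, which are given here as a description. *Nadsyn1*/*Dhcr7* (296 bp) encodes an NAD synthetase and the enzyme of the last step of cholesterol synthesis. Its PBRM1 values were 14.9, 14.3 and 13.2 and its BRG1 values 15.4, 15.7 and 17.1, with summits −67 to 1 bp from the midpoint. *Npc2*/*Isca2* (99 bp) encodes the lysosomal cholesterol carrier and an iron-sulfur assembly factor, with means of 13.2 ± 0.562 for PBRM1 and 16.7 ± 0.787 for BRG1. The summits of all 3 BRG1 replicates and of PBRM1 replicates 2 and 3 fell on the same base, 145 bp inside *Npc2*. *Pip4p1*/*Pnp* (226 bp), the latter encoding purine nucleoside phosphorylase, had means of 12.9 ± 0.526 and 17.8 ± 1.74, with all 6 summits 27 to 39 bp inside *Pnp*. *Tgfbrap1*/*AI597479* (73 bp) had means of 13.6 ± 2.77 and 15.5 ± 1.23, and *Ccdc151*/*Prkcsh* (172 bp) 13.3 ± 2.61 and 16.2 ± 0.331. *Prkcsh* encodes the beta subunit of glucosidase II, and the summits of its pair lay between the 5′ ends in all 6 libraries, 29 to 77 bp to the *Prkcsh* side of the midpoint.

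**Figure D4:**
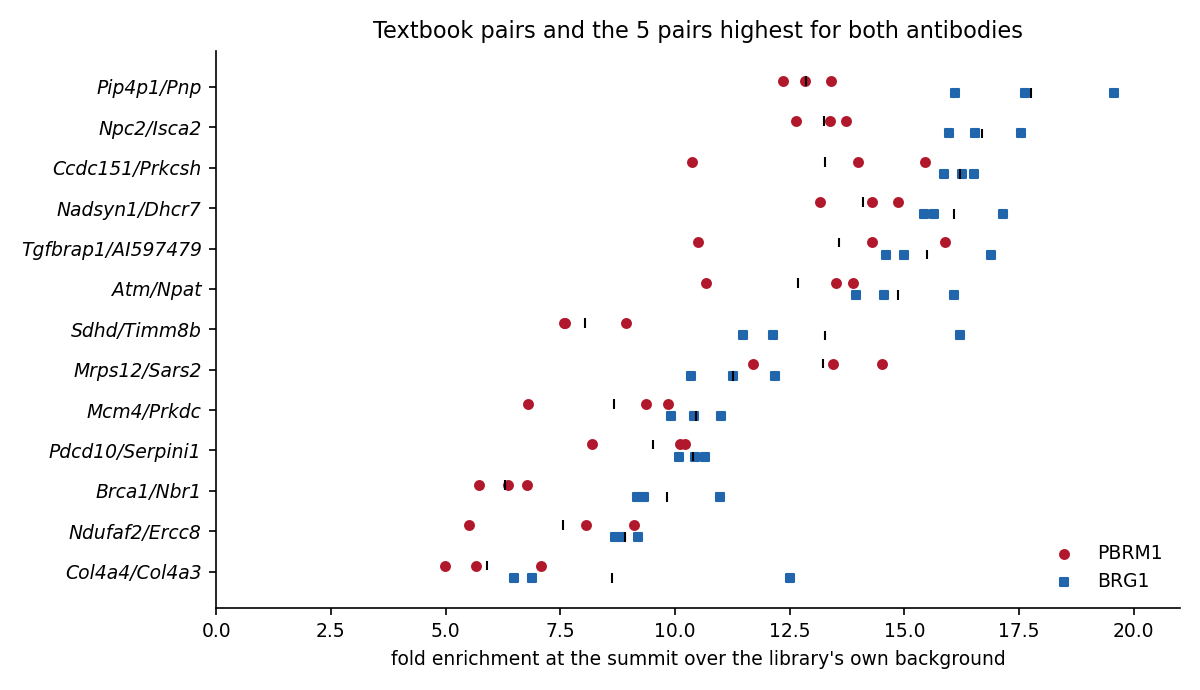
Fold enrichment at the summit (x axis, over the background of the library itself) of the 8 textbook pairs and the 5 pairs highest for both antibodies. Points are the 3 replicates of PBRM1 (circles) and BRG1 (squares) and black ticks their means; PBRM1 replicates span 10.4 to 15.5 at *Ccdc151*/*Prkcsh*, and BRG1 replicates span 6.48 to 12.5 at *Col4a4*/*Col4a3*.

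Divergent pairs held a large part of several gene groups. Of 73 annotated replication-dependent histone genes, 27 (37%) were in pairs, as were 40 of 150 DNA replication and repair genes (26.7%), 18 of 78 mitochondrial ribosomal protein genes (23.1%) and 23 of 107 respiratory chain genes (21.5%), beside 6.96% of all protein-coding genes. Of 416 zinc finger genes 20 (4.81%) were in pairs, and of 46 genes of P4 response and implantation 1 (2.17%). These lists hold gene families that share sequence and position.

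All 18 mitochondrial ribosomal pairs had a peak in the 6 replicate lists, with a median of the replicate means of 7.96 for PBRM1 and 9.45 for BRG1, beside 661 of all 734 pairs (90.1%) with medians of 7.59 and 9.50. The examples with the smallest distances were *Mrpl54*/*Apba3* (26 bp), with 8.09 ± 0.868 for PBRM1 and 9.33 ± 0.651 for BRG1, *Eme2*/*Mrps34* (29 bp), with 6.57 ± 2.56 and 7.08 ± 0.967, and *Helq*/*Mrps18c* (29 bp), with 5.31 ± 1.01 and 10.3 ± 2.01. Of 23 respiratory chain pairs 22 had all 6 peaks, a share near that of all pairs, with medians of 7.79 and 10.3. The closest were *Rps28*/*Ndufa7* (10 bp), with 4.77 ± 1.19 and 7.68 ± 1.00, and *Tatdn1*/*Ndufb9* (18 bp), with 8.10 ± 1.44 and 9.10 ± 1.26, where *Ndufa7* and *Ndufb9* encode complex I subunits. None of the 23 had its pooled PBRM1 summit between the 5′ ends, and 9 had the BRG1 summit there, beside 162 of 706 PBRM1 and 299 of 710 BRG1 summits over all called regions. These pairs had a median distance of 99 bp, and in all pairs of 1 to 100 bp the shares were 8.86% and 22.6%. Of 41 DNA replication and repair pairs 38 had all 6 peaks, also near the share of all pairs, with medians of 8.06 and 10.4. *Orc3*/*Rars2* (13 bp), with a subunit of the origin recognition complex, had 8.84 ± 2.19 and 12 ± 1.04. *Lig4*/*Abhd13* (21 bp), with the ligase of end joining, was called in 1 PBRM1 and 2 BRG1 replicates.

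The histone pairs had the lowest BRG1 median of the 11 groups with a pair called in all 6 lists. Of 14 pairs 10 had all 6 peaks, beside 90.1% of all pairs, with medians of 6.42 for PBRM1 (range 5.38 to 8.07) and 7.01 for BRG1 (range 5.69 to 8.75), and no pooled PBRM1 summit and 1 BRG1 summit lay between the 5′ ends, beside 162 of 706 and 299 of 710 over all called regions. The closest pairs were *Bola1*/*Hist2h2ab* (156 bp), with 8.07 ± 2.47 and 7.58 ± 0.287, and *Hist1h2ae*/*Hist1h2bg* (176 bp), with 6.28 ± 1.53 and 6.73 ± 1.36. The pairs *Hist1h2ap*/*Hist1h2br* and *Hist1h2bq*/*Hist1h2ao* had no peak in any list although their regions were rich in CpG (ratios of 0.906 and 0.923). Histone genes of these clusters are nearly identical copies, and read pairs of low mapping quality were removed by the authors. Missing peaks, fold enrichments and summit positions there are therefore uncertain.

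Called shares in the remaining groups can be read against the 90.1% of all pairs. Of 19 chaperone pairs 16 had all 6 peaks, with medians of 7.98 and 10.5. *Bag4*/*Lsm1*, whose 5′ ends were 1 bp apart, had 12.0 ± 2.36 for PBRM1 and 12.4 ± 1.98 for BRG1, and *Bag5*/*Apopt1* (4 bp) 7.25 ± 1.77 and 8.17 ± 0.825. All 7 proteasome pairs had the 6 peaks, with medians of 7.23 and 8.17, and *Dnajc2*/*Psmc2* (32 bp) had 6.40 ± 1.04 and 8.17 ± 0.681. The next closest, both at 75 bp, were *Ftsj3*/*Psmc5*, with 8.42 ± 1.66 and 8.85 ± 0.833, and *Mrpl32*/*Psma2*, with 8.99 ± 0.636 and 15.2 ± 2.32. All 5 tRNA synthetase pairs had them, with medians of 8.70 and 11.3, and beside *Orc3*/*Rars2* the closest was *S100pbp*/*Yars* (33 bp), with 6.12 ± 0.937 and 8.97 ± 0.881. Of 9 cytosolic ribosomal protein pairs 7 had them, with medians of 6.35 and 8.37, and after *Rps28*/*Ndufa7* the closest was *Rps27*/*Rab13* (44 bp), with 5.77 ± 1.19 and 7.80 ± 0.939. Of 18 zinc finger pairs 15 had them, with medians of 6.49 and 8.37, and the closest were *Cct6b*/*Zfp830* (24 bp), with 9.30 ± 1.70 and 10.8 ± 0.202, and *Zfp142*/*Bcs1l* (43 bp), with 7.52 ± 1.96 and 9.95 ± 0.348. *Trip13*/*Brd9* (27 bp) and *Psma7*/*Ss18l1* (76 bp) were the 2 pairs with a gene of the SWI/SNF complexes. The former, with the bromodomain subunit *Brd9*, had 7.96 ± 1.13 for PBRM1 and 11.1 ± 1.19 for BRG1, and the latter 5.23 ± 0.329 and 6.16 ± 0.305. No group was tested, and the groups share pairs, since a pair counted where either gene belonged.

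Pairs without peaks were few. Neither pooled list had a peak in 22 regions, and no list of any kind in 21. The 5 with the smallest distances were *Best1*/*Rab3il1* (36 bp), *Rnf151*/*Rps2* (53 bp), *4930430F08Rik*/*1700017N19Rik* (61 bp), *Dgcr2*/*Tssk2* (75 bp) and *Il11*/*Tmem190* (78 bp). *Il11*, the only gene of the P4 and implantation list in a pair, encodes a cytokine of decidualization, and its nearest pooled peaks were 4748 bp (PBRM1) and 4805 bp (BRG1) from the region. *Tssk2* is a testis-specific kinase, *Best1* a bestrophin channel, and *Rps2* a protein of the small ribosomal subunit. In 12 of the 22 regions, a gene of the pair had a pooled peak within 500 bp of another of its annotated transcript starts. *Rps2* was one of these, with pooled peaks 1004 bp (PBRM1) and 981 bp (BRG1) from the region, so that the absence of a peak refers to the outermost annotated 5′ end. In the other 10 regions neither gene had one. The 22 regions had a median G+C content of 52.3% and a median CpG ratio of 0.245, and 2 of them passed both limits for CpG-rich sequence, against 500 of the 661 regions with all 6 peaks (75.6%).

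A single pair was called in all replicates of one antibody and in none of the other. *Ifit1bl2*/*Ifit1* (128 bp), a pair of interferon-induced genes, had BRG1 fold enrichments of 4.61, 4.71 and 6.05 and no PBRM1 peak, also in the pooled list. These BRG1 peaks were narrow, 276 to 302 bp, and low beside the BRG1 median of 9.50. Among the other regions with 1 to 4 replicate lists, chosen for mention after their values were seen, were the imprinted pairs *Peg3*/*Usp29*, with a peak in 1 PBRM1 and 0 BRG1 replicates, and *Sgce*/*Peg10*, with 2 and 1. *Wrap53*/*Trp53* was called in 1 replicate of each antibody, with pooled fold enrichments of 2.26 for PBRM1 and 3.45 for BRG1. *Pecam1*/*Milr1*, with the endothelial marker *Pecam1*, was called in 2 PBRM1 and 0 BRG1 replicates.

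Exact matches to short motifs were counted on both strands in windows of 501 bp, centred on the midpoint of a pair or on the 5′ end of a gene. The window of a pair usually takes in the 5′ ends of both genes, and the window of a lone gene only its own. The shares of pairs and those of lone genes or all promoters are therefore not like for like. The ETS motif CCGGAAG was found in 34.1% of the divergent pairs, 12.5% of lone windows and 14.8% of all protein-coding promoters. In CpG-rich sequence it was found in 38.7% of the pairs and 20% of the lone windows. The GC box GGGCGG was in 78.2% of the pairs, 50.9% of lone windows and 53.5% of all promoters, but in CpG-rich sequence its share was lower in pairs (84.9%) than in lone windows (89.9%). The YY1 motif AAGATGGCG was in 7.22% of the pairs and 2.87% of all promoters, the NRF1 motif TGCGCATGC in 4.63% and 2.2%, and the palindrome CTCGCGAG in 4.09% and 1.58%. The CCAAT box CCAAT was in 52.6% and 48.2%, and the TATA box TATAAA in 6.68% of the pairs and 16.5% of all promoters. In CpG-rich sequence several of these contrasts were smaller. TATAAA was then in 4.02% of the pairs and 5.99% of the lone windows, TGCGCATGC in 4.02% and 3.49%, CTCGCGAG in 4.41% and 3.13%, AAGATGGCG in 7.66% and 4.43%, and CCAAT in 51.1% and 41.3%. None of these motifs contains another, although neighbouring matches can overlap. A match is a description of the sequence and was not tied to a bound factor.

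**Figure D5:**
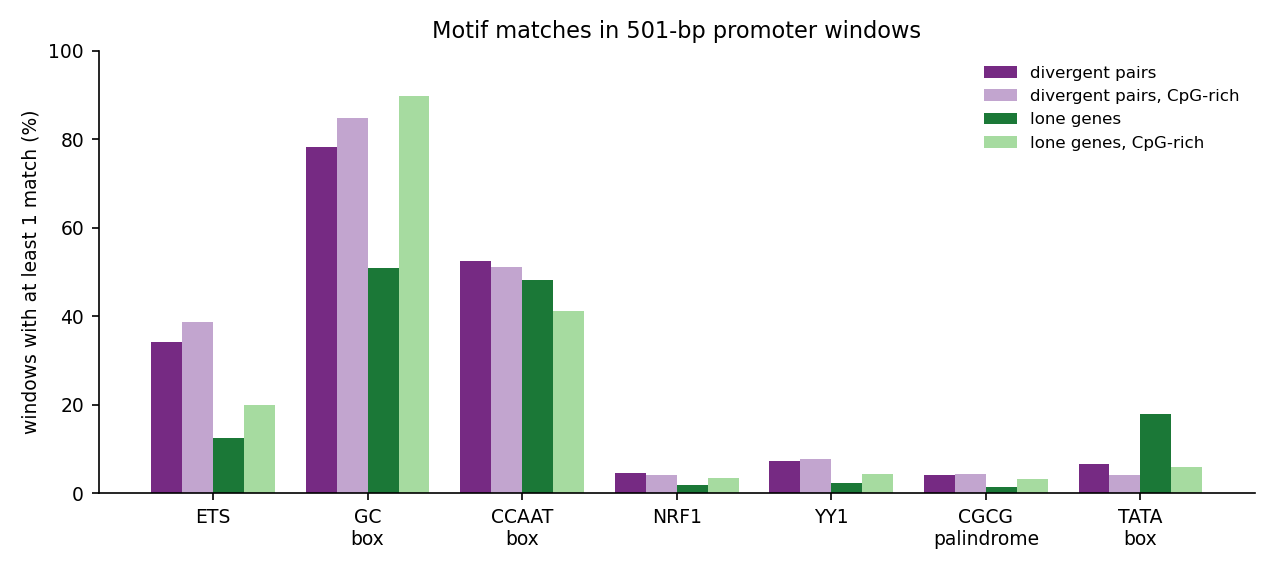
Share of windows of 501 bp with at least 1 match to each motif (%), for divergent pairs and lone genes, over all windows and over those rich in G+C and CpG. Bars start at 0. ETS matches were in 34.1% of the pairs and 12.5% of lone windows, and TATA matches in 6.68% and 17.9%. The window of a pair usually takes in the 5′ ends of both genes and that of a lone gene only its own.

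Fold enrichment differed with some motifs. Among the 661 regions with all 6 peaks, the 353 with a CCAAT box had a higher median fold enrichment than the 308 without, by 0.857 ± 0.138 (SD, n = 3 libraries) for PBRM1 and 1.21 ± 0.108 for BRG1. The 38 regions with TATAAA were lower, by −0.383 ± 0.16 and −1.16 ± 0.125. The CCAAT box itself was not rarer where peaks were missing, with a match in 63.6% of the 22 regions without a pooled peak and in 53.4% of the 661. For the ETS motif the difference in fold enrichment was 0.121 ± 0.111 and 0.285 ± 0.438, and for BRG1 it was below 0 in the lowest library. The 33 regions with the NRF1 motif had differences of 0.563 ± 0.643 for PBRM1 and 1.23 ± 0.483 for BRG1, and the 50 with the YY1 motif had differences of −0.163 ± 0.201 and −0.896 ± 0.231. For the GC box they were 0.0455 ± 0.167 and 0.334 ± 0.165, and for the palindrome CTCGCGAG 0.0441 ± 0.237 and −0.401 ± 0.414. The CCAAT, NRF1 and TATA differences had one sign in 6 of 6 libraries. The YY1 and GC box differences had one sign in the BRG1 libraries but not in the PBRM1 libraries, and the palindrome differences in neither. None was tested, and the regions are not replicates of a condition.

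Markers of the cell type were read as a peak within 500 bp of the gene 5′ end. Over all protein-coding genes, 45.2% had such a peak in the 6 replicate lists. Of 8 stromal markers 1, *Vim*, had a peak in all 6, and *Pdgfra* and *Nr2f2* had none. None of 7 epithelial markers had all 6 peaks and 3 had none, but *Cdh1* had a peak in 2 PBRM1 and 3 BRG1 replicates and *Krt18* in 2 and 2, more than most stromal markers. All 3 immune markers had none. *Kdr* among 3 endothelial markers and *Des* among 3 smooth muscle markers had all 6. Most stromal markers therefore lacked a peak in at least 1 list, and the part of other cell types in the values above was not tested.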

How the data were processed

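The authors trimmed read pairs, aligned them to mm10 (GRCm38.p5 per the labels) with Bowtie2, discarded duplicates and poorly mapping pairs, and used MACS 2.2.7.1 to call peaks per replicate and on the pooled fragments of each antibody, at a q-value of 0.05 and with no control file. Each of the 8 deposited lists gives a pileup signal, −log10 q-values and a fold enrichment (ratio of summit signal to the local background). The PBRM1 replicates held 8868777 to 16505239 fragments, and the BRG1 replicates 11506964 to 14595089.

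Peaks were intersected (at least 1 bp) with GENCODE vM21 gene models in Python 3.11.15 with numpy 2.4.6, pandas 2.3.3 and scipy 1.17.1, and sequences were read from GRCm38.p6. A region took the values of its peak with the highest fold enrichment. Samples were grouped by antibody from their labels. PBRM1 and BRG1 libraries were compared with two-sided exact permutation tests, and pairs with lone genes by sign-flip permutations over libraries. Named pairs were textbook pairs, the 5 highest in both antibodies, the 5 closest without peaks, those called with one antibody, the 5 widest with separate peaks and the 3 nearest the distance limit on either side, and group examples were those of smallest distance; 2 of the named pairs are not reported here. Members and lists were chosen with earlier results of these data known. The counting code was checked on simulated data with a single peak placed inside each planted region, and all 200 planted regions were recovered. Overlapping regions and several peaks per region were not simulated. Alternatives were a −log10 q of at least 5, other gene models, distances, windows and classes, a replicate block and each replicate left out.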

Additional observations from a re-analysis of the deposited data

How the results depend on the processing

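With peaks of −log10 q of at least 5, the share of regions with a peak was 89.1% for PBRM1 and 94.6% for BRG1. With the summit required in the region it was 91.6% and 94.6%, and with no flank 86.4% and 93.1%. With 5′ ends from basic transcripts (756 pairs, 653 of them the same), the BRG1 share was 95.5%, the share of BRG1 summits between the 5′ ends 43.4%, the share of BRG1 peaks over both 82.2% and the median summit distance 74 bp. With distances of at most 300 bp, 95.5% of regions had a BRG1 peak, 17.4% of PBRM1 and 35.4% of BRG1 summits lay between the 5′ ends, and 81.9% and 91% of peaks covered both. With distances of 100 to 1000 bp these were 35% and 53.7%, and 64.4% and 75.5%. The median summit distance averaged 84.5 bp over the 3 same-numbered pairs of replicates. These shifts exceed 1 SD of the replicates. A stricter q, no flank and a required summit can only lower the share of regions with a peak. The distance settings read subsets of the pairs, and the shares of summits between the 5′ ends by class of distance are given above. For the other gene models and the replicate pairs the cause was not tested. No result reversed.

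Leaving out each library in turn, pairs exceeded lone windows by 41.8 to 43.3 points in share, 156 to 164 bp in width and 0.835 to 0.965 in fold enrichment, where 5 libraries cannot give a p below 0.0625. The PBRM1 minus BRG1 difference ranged from −2.59 to −1.36 points for regions with a peak and from −19.1 to −15 for summits between the 5′ ends.

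Labels give both antibodies replicates 1 to 3. Deviations in log2 fold enrichment of same-numbered libraries correlated at −0.0596, −0.0556 and −0.02 over 661 regions. Libraries of different numbers correlated at 0.00552 to 0.0507. No pairing by number was seen, but values near 0 cannot show that same-numbered libraries came from separate preparations. With the replicate block, the differences were −1.95 and −16.5 points (exact sign-flip permutation test, p = 0.25, the smallest that 3 pairs allow).

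Depth differed between libraries and peaks were called without a control, so that the part of open chromatin or fragment recovery in them was not tested. Gene 5′ ends are annotated, not measured in these cells.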
